A study of Mus musculus with 72 samples.

Results

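The 36 cell cycle and DNA replication genes described here were followed by symbol through RNA-seq gene counts of mouse liver and of the suprachiasmatic nucleus (SCN), the hypothalamic pacemaker of daily rhythms. All 36 had a row among the 22823 genes of the liver table, and 26 had one among the 15759 genes of the SCN table. The other 10 (Mki67, Ccnb1, Ccnb2, Cdk1, Aurka, Aurkb, Bub1, Birc5, Cdc20 and E2f1) were not analysed in the SCN. C57BL/6 mice, aged 8 to 12 weeks when bought per the protocol, ate a diet lacking methionine and choline (MCD) or an isocaloric control diet for 11 days, were housed singly, spent 10 days in 12 h of light and 12 h of darkness, and were killed in constant darkness on the last day. Animals were taken every 4 h from circadian time 0 (CT00) to CT20. Each of the 24 groups (2 tissues, 2 diets, 6 times) held 3 libraries, from 2 males and 1 female per the sample labels, whereas the protocol speaks of male mice only, and no group carried a genetic change. Liver came from the left lobe and SCN was cut out by laser from stained brain sections, so both are mixtures of cell types. In such bulk samples a change in the number of cells of a type and a change in RNA per cell cannot be told apart.

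Cells divide in a fixed order of phases. D-type and E-type cyclins with CDK4, CDK6 and CDK2 carry a cell through G1, the MCM helicase and PCNA serve DNA replication in S phase, and cyclin A2 and B-type cyclins with CDK1, the Aurora and Polo kinases and the spindle checkpoint act in G2 and mitosis. Most adult hepatocytes rest outside the cycle but can re-enter it after injury or loss of tissue, and the neurons of the adult SCN do not divide. Wee1, a kinase that holds CDK1 inactive, is also known as a clock-controlled gene in liver, driven by CLOCK and BMAL1.

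Libraries held between 52.6 and 86.7 M counts in liver (median 64.4 M) and between 23.3 and 79.8 M counts in SCN (median 57 M). Values are CPM, counts scaled to a common library size, and calls are those of edgeR's quasi-likelihood test at an adjusted p below 0.05 over all genes tested in a tissue. All 36 members passed the filter on low counts in liver, also when it was applied to the control libraries alone. Summed levels of 8 hepatocyte markers lay between 59000 and 126000 CPM in every liver library, and 12 SCN neuron markers between 3360 and 6210 CPM in every SCN library. Each table has 2 columns of the same name for the control males at CT08, referred to below by the letters a and b. In liver the library labelled control CT08 a stood apart from the other 17 controls, and each result below is given without it where that matters. The sum of the 13 G2 and mitosis members was 71.4 CPM in it, 6.31 to 21.1 CPM in the other controls and 14.7 to 81.3 CPM in the 18 MCD libraries. It was the highest control for 13 of these 13 members, for 9 of 10 S phase members, for 3 of 8 G1 members and for 1 of 5 inhibitors and checkpoint genes. Because it was singled out by its levels of the members, results without it are not an independent check of them.

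In liver most members were higher on the MCD diet, and the median change was largest for the mitotic genes. Averaged over the 6 times, 31 of the 36 members rose and none fell (86.1%), against 46.6% of all genes tested that were called and 25.3% that were called higher. The median change of the members was 1.10 log2, beside 0.02 for all genes tested. At least 1 log2 higher were 19 members, where 5.24% of all genes were. All 13 G2 and mitosis members rose (median 1.67 log2), as did all 10 members of S phase entry and DNA replication (median 0.73). Of the 8 G1 cyclins and CDKs 4 rose (Ccnd1, Ccne1, Ccne2 and Cdk6), and of the 5 inhibitors and checkpoint genes 4 rose (Cdkn1a, Cdkn2c, Wee1 and Gadd45a). Ccnd2, Ccnd3, Cdk4, Cdk2 and Cdkn1b did not pass the test, with changes of -0.15 to 0.03 log2. Leaving out the control library CT08 a also gave 31 calls (25.8% of all genes called higher in that fit), and the median change of the 13 mitotic members was 1.94 log2.

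**Figure D1:**
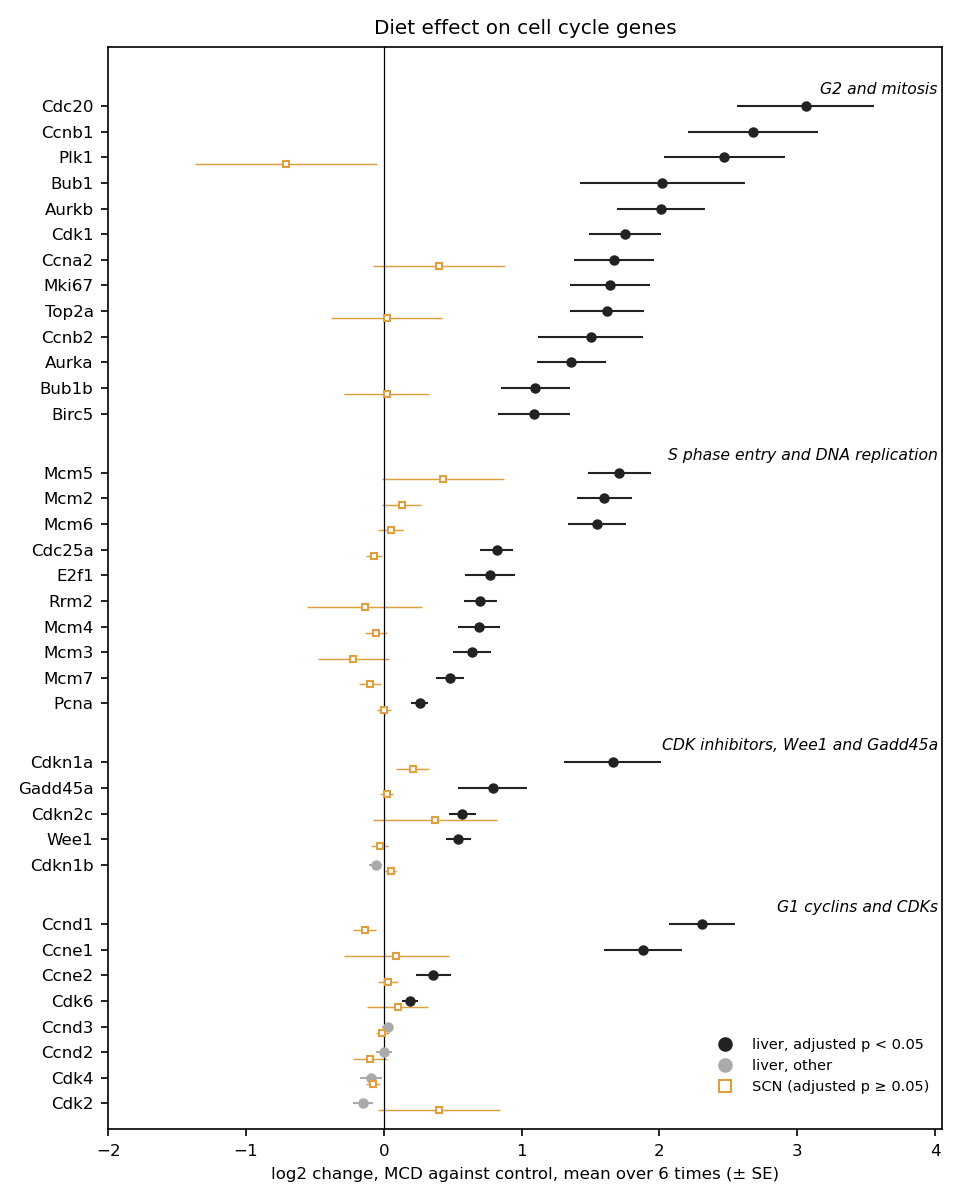
Log2 change from control to MCD for the 36 members, averaged over 6 times, with SE bars (18 libraries a diet). Circles are liver (black where the adjusted p was below 0.05) and open squares are the 26 members of the SCN table. Liver values of the 13 G2 and mitosis members lie between 1.09 and 3.06, while SCN values lie between -0.71 and 0.43.

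Cyclin D1, the G1 cyclin that growth signals induce, was per kilobase of exon the most abundant member on MCD (47.1 CPM per kb). On control its level of 11.7 CPM per kb was that of Cdk4, and leaving out control CT08 a made it 9.72, below Cdk4 at 11.6. Ccnd1 lay between 12.8 and 218 CPM on control (median 25.6) and between 72.6 and 419 CPM on MCD (median 209). The groups overlapped, with 8 of 18 MCD libraries above the highest control and 13 above it once control CT08 a was set aside. Ccnd1 rose by 2.31 ± 0.24 log2 (SE, edgeR adjusted p = 2.75e-08). It was called at 5 of 6 times, the exception being CT08. Cdk4, its partner kinase, lay between 28.7 and 46.7 CPM on control and between 25.9 and 57.4 CPM on MCD. Cyclin E1, which activates CDK2 at the start of S phase, was scarce on control, where 2 libraries held no read of it. Ccne1 lay between 0 and 3.88 CPM on control (median 0.668) and between 1.09 and 6.76 CPM on MCD (median 2.49). Every MCD library was above every control library of its time at all 6 times, and the change was 1.88 ± 0.28 log2 (adjusted p = 4.38e-06). The margin at CT12 was narrow (lowest MCD 3.12 CPM, highest control 3.05 CPM), and the share of all genes separated so was not counted. Ccne2 (0.36 log2, adjusted p = 0.0213) lost its call without MCD CT04 replicate 1 (adjusted p = 0.0631).

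Among the members of S phase, the 6 subunits of the MCM2-7 helicase, which unwinds DNA at the replication fork, all rose, by 0.48 log2 (Mcm7) to 1.71 log2 (Mcm5). Mcm5 lay between 1.04 and 12.5 CPM on control (median 2.22) and between 2.91 and 33.1 CPM on MCD (median 7.52). The 12.5 CPM belonged to control CT08 a, the next control had 4.96 CPM, and 14 of 18 MCD libraries were above that. The change of Mcm5 was 1.71 ± 0.23 log2 (adjusted p = 1.51e-06). For Mcm2, all 18 MCD libraries (5.32 to 24.9 CPM) were above the other 17 controls, whose highest had 4.69 CPM. Mcm2 and Ccnb1 were the 2 members with this full separation once control CT08 a was left out, where 0.691% of all genes had it. That library was singled out by its levels of the members, so this count and the share of all genes are not on equal terms. With control CT08 a in, no member was separated so, and 0.0889% of all genes were. The sliding clamp Pcna, abundant on both diets, changed least in this role (0.26 log2, adjusted p = 9.20e-04), and Rrm2, the cycle-bound subunit of ribonucleotide reductase, rose by 0.70 log2 (adjusted p = 3.24e-05).

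The mitotic members were scarce on control and had the largest median rise of the roles, although Ccnd1 rose more than most of them. Cdc20, the activator of the anaphase-promoting complex, lay between 0 and 7.28 CPM on control (median 0.297) and between 0.573 and 17.1 CPM on MCD (median 2.14). These are few reads on control, with a median of 15 counts per library and 739 in control CT08 a, against 36 to 1194 counts on MCD. Cdc20 rose by 3.06 ± 0.50 log2 (adjusted p = 2.08e-05), the largest change of any member, and 3.99 log2 without control CT16 replicate 2. Cyclin B1, which with CDK1 drives entry into mitosis, had a control median of 0.134 CPM and an MCD median of 1.10 CPM. All 18 MCD libraries (0.35 to 5.16 CPM) were above the 17 controls other than control CT08 a, whose highest had 0.342 CPM, and the change of Ccnb1 was 2.68 ± 0.47 log2 (adjusted p = 4.48e-05). The Polo kinase Plk1, needed for spindle assembly, lay between 0 and 3.38 CPM on control (median 0.255) and between 0.356 and 4.88 CPM on MCD (median 1.28), a rise of 2.47 ± 0.44 log2 (adjusted p = 5.19e-05). Aurkb, the kinase of the chromosomal passenger complex, went from a median of 0.31 CPM to one of 1.42 CPM (2.01 log2, adjusted p = 8.97e-06), and Cdk1 from 0.824 to 2.93 CPM (1.75 log2, adjusted p = 4.87e-06). Mki67, the usual marker of cycling cells, lay between 1.82 and 17 CPM on control (median 2.86) and between 3.80 and 22.5 CPM on MCD (median 11.3). Of the 18 MCD libraries 4 were above the highest control and 11 were above the highest control other than control CT08 a, and Mki67 rose by 1.64 ± 0.29 log2 (adjusted p = 5.30e-05). Bub1, with no read in 9 libraries, and the other members of this role rose by 1.09 to 2.02 log2. The value of Bub1 rests on few reads and was 2.68, 3.11 and 2.91 log2 without control CT12 replicate 3, CT16 replicate 1 and CT20 replicate 3 in turn.

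**Figure D2:**
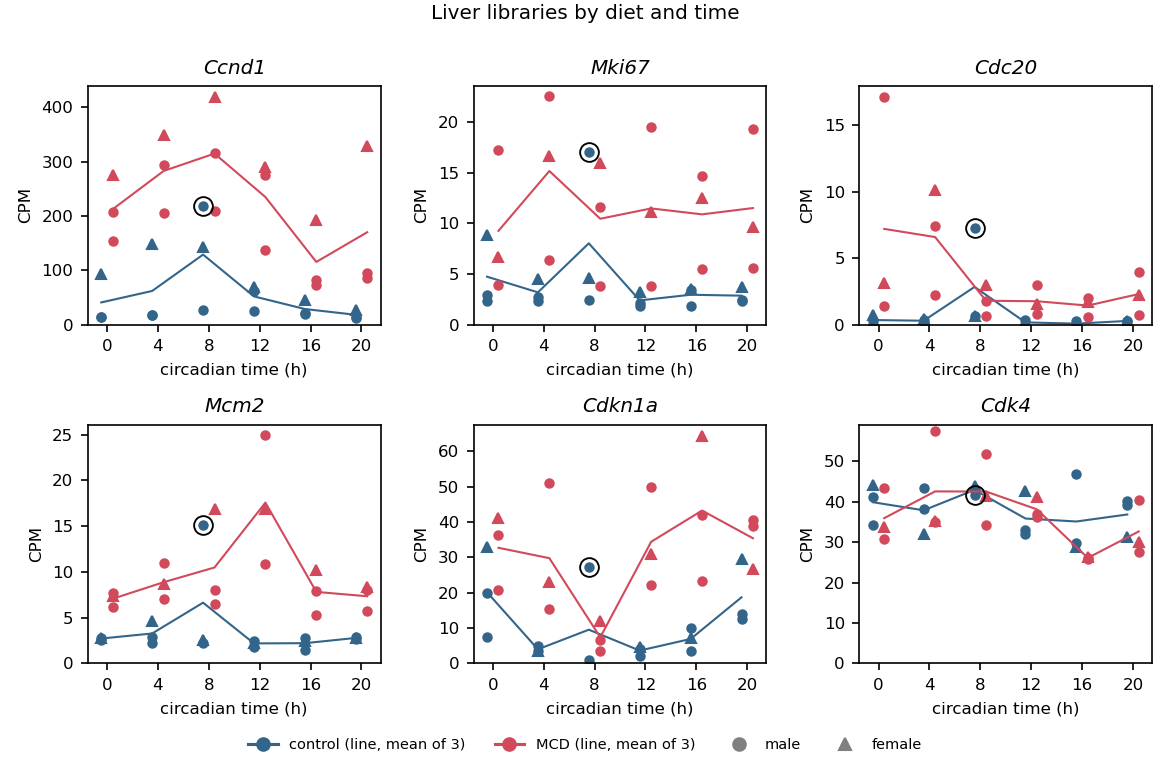
Scaled CPM of 6 members in each of the 36 liver libraries by circadian time (circles male, triangles female, lines the mean of 3), with the library labelled control CT08 a ringed. MCD libraries sit above the controls of their time for most points of Ccnd1, Mki67, Cdc20 and Mcm2, apart from CT08, where the ringed library lies above all 3 MCD libraries for Cdc20 and Mki67 and within their range for Ccnd1 and Mcm2. For Cdk4 the diets overlap at every time except CT16, where MCD (25.9 to 26.3 CPM) is below control (28.7 to 46.7 CPM).

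MCD livers differed widely among themselves. The mitotic sum was 81.3 CPM in MCD CT00 replicate 1 and 16.8 CPM in replicate 2 of the same time, and 73.2 CPM against 23.0 CPM in replicates 1 and 2 at CT04. The sum of the 10 S phase members was 155 CPM in control CT08 a, 54.9 to 76.6 CPM in the other controls and 69.1 to 263 CPM on MCD, with the highest value in MCD CT12 replicate 2. The 5 lowest MCD libraries by mitotic sum (CT08 1, CT00 2, CT12 1, CT16 1 and CT20 2) held 14.7 to 20.2 CPM and overlapped with the highest control other than control CT08 a (21.1 CPM, control CT00 replicate 3). Markers of other liver cells are given beside the 25.3% of all genes called higher and the 21.2% called lower. Of 13 macrophage markers 12 rose and none fell (median 0.47 log2). Their sum was 448 to 1100 CPM on control and 625 to 1400 CPM on MCD. Of 8 stellate cell markers 2 rose (Col1a2 and Col3a1), with sums of 153 to 436 CPM on control and 167 to 536 CPM on MCD. No marker of these lists was at 0 in all 36 libraries. All 3 neutrophil markers in the table (S100a8, S100a9 and Retnlg, with Ly6g, Mpo, Elane, Camp and Ngp not analysed here) rose (sums of 0 to 2.13 CPM and 0 to 10.1 CPM). These are low levels, and Retnlg was not above 0.5 CPM in any liver library. Of 8 erythroid markers 5 fell and none rose (median -0.87 log2, sums of 169 to 471 CPM on control and 122 to 306 CPM on MCD), and of 8 liver endothelium markers 3 rose and none fell. Of 12 lymphocyte markers none rose and 1 fell, and of 8 hepatocyte markers none rose and 4 fell. MCD CT04 replicate 1 and MCD CT12 replicate 2, with mitotic sums of 73.2 and 66.4 CPM, also had the highest macrophage (1400 and 1380 CPM) and stellate sums (536 and 507 CPM) and the lowest hepatocyte sums. Control CT08 a lay beside them with 1100 CPM for macrophages and 436 CPM for stellate cells. MCD CT00 replicate 1, the library with the highest mitotic sum, had the lowest macrophage sum of the MCD libraries (625 CPM). Liver libraries also fell into 2 kinds by their level of the mitochondrial gene mt-Nd6, 21 at 32.8 to 133 CPM (8 control, 13 MCD) and 15 at 379 to 1040 CPM (10 control, 5 MCD). Within the first kind 16 members were called higher (12.4% of all genes in that fit), 7 of them mitotic, and within the second 26 were (14.9%), 13 of them mitotic. The median change of the 13 mitotic members was 1.52 log2 in the first kind and 2.34 log2 in the second. Control CT08 a was 1 of the 8 controls of the first kind, and no fit within that kind left it out. The part of these other cells in the rise of the cell cycle members was not tested.

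**Figure D3:**
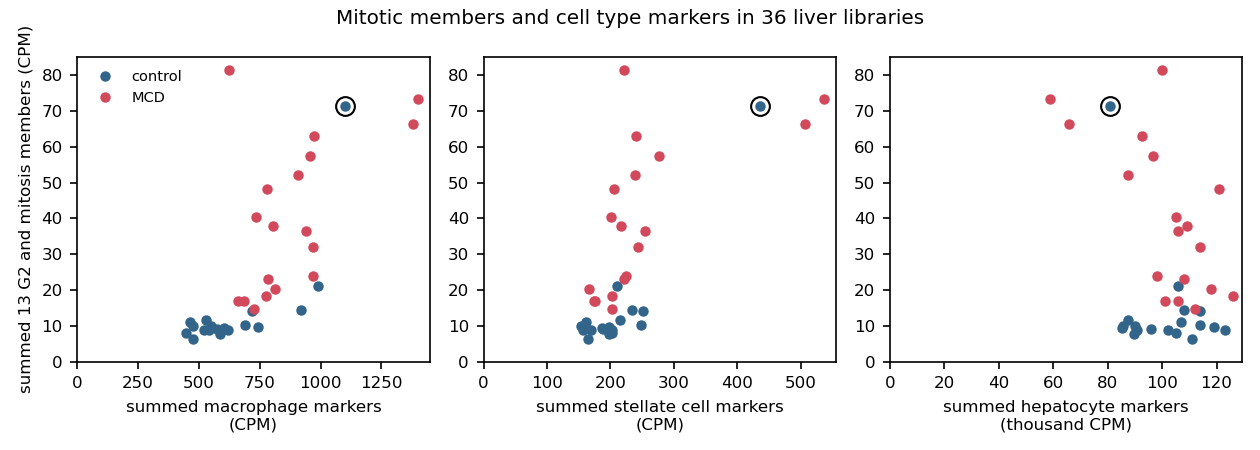
Summed CPM of the 13 G2 and mitosis members against the summed CPM of 13 macrophage, 8 stellate cell and 8 hepatocyte markers in each of 36 liver libraries, blue for control and red for MCD, with the library labelled control CT08 a ringed. The ringed library and MCD CT04 replicate 1 and CT12 replicate 2 combine mitotic sums of 66.4 to 73.2 CPM with the 3 highest stellate sums, while MCD CT00 replicate 1 (81.3 CPM) has 625 CPM of macrophage and 222 CPM of stellate markers.

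Some inhibitors of the cycle were also higher on MCD when averaged over the 6 times. The p53 target Cdkn1a, which encodes the CDK inhibitor p21, lay between 0.39 and 32.9 CPM on control (median 6.12) and between 3.48 and 64.3 CPM on MCD (median 28.8). Groups overlapped, with 8 of 18 MCD libraries above the highest control, and the change was 1.66 ± 0.35 log2 (adjusted p = 3.89e-04). Leaving out control CT08 a made it 2.31 log2 (adjusted p = 3.03e-08). Cdkn2c, encoding the CDK4 and CDK6 inhibitor p18, rose by 0.57 log2 (adjusted p = 2.66e-05). Gadd45a, a stress-induced gene that can arrest cells in G2, rose by 0.79 log2 (adjusted p = 0.0108). Cdkn1b, which encodes the inhibitor p27, was at 19.2 to 30.5 CPM on control and 19.1 to 27.3 CPM on MCD, and its change of -0.06 log2 did not pass the test.

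Genes of the same processes outside the 36 gave a mixed picture, read against the 25.3% of all genes that were called higher and the 21.2% called lower. Of 40 further mitotic genes 36 rose and 1 fell (median 1.30 log2). The largest rises were those of the kinetochore gene Kntc1 (3.15 log2), the spindle gene Hmmr (2.77) and the condensin subunit Ncapg (2.44), and the securin gene Pttg1 fell (-0.37). Of 39 genes of replication origins and forks 20 rose and 4 fell (median 0.33 log2), led by the origin licensing factors Cdc6 (2.00) and Cdt1 (1.30) and the polymerase subunit Pole2 (1.26), with Rpa3 the largest fall (-0.44). Of 8 genes that supply nucleotides 3 rose and 4 fell, among them the S phase gene Tk1 (-0.91 log2), with Rrm1 the largest rise (0.49). In the retinoblastoma, E2F and DREAM list, which holds the transcription factors of the cycle, 7 of 19 rose and 3 fell, with Mybl1 (2.15 log2) and Foxm1 (1.79) the largest rises and Rbl2 the largest fall (-0.42). Of 24 other regulators 9 rose and 5 fell, with Chek1 (1.89 log2) and Mycn (-1.27) at the ends. Of 26 genes of p53 signalling and growth arrest 15 rose and 3 fell, with Gadd45b (3.48 log2) and Eda2r (2.07) the largest rises.

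Promoters bear on these genes because known cell cycle promoters share short motifs. In the 250 bases before the start site, taken from RefSeq (GRCm38.p6), 29 of the 36 members had a window, and Ccnd1, Ccnd2, Ccne2, Wee1, Mcm4, Ccna2 and Aurkb had none. Motifs were searched on both strands and counted once a window, and hits may share bases. An E2F word (TTTGGCGC, TTTCCCGC or TTTCGCGC) was present in 6 members (Cdc25a, Cdk1, Cdk2, Mcm5, Mcm6 and Mcm7), 4 of them among the 9 S phase members with a window, where 1.53% of all 32851 windows held one. The CCAAT box, bound by NF-Y, was present in 22 members, including 10 of 11 mitotic and 8 of 9 S phase members, against 33.8% of all windows. TTTGAA, the core of the cell cycle homology region that the DREAM complex binds, was present in 6 members, 5 of them mitotic (Ccnb2, Cdc20, Cdk1, Mki67 and Top2a), against 16% of all windows. The clock E-box CACGTG was present in Cdk4 and Cdk6 (6.02% of all windows), and a D-box (TTACGTAA or TTATGTAA) in none (0.931%).

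The windows of the helicase subunits Mcm5 (chr8:75109259-75109508, plus strand) and Mcm6 (chr1:128359706-128359955, minus strand) are shown 5′ to 3′ because they hold more than 1 E2F word, in capitals. In both, 2 words on opposite strands overlap. Those of Cdk1 (chr10:69352913-69353162, minus strand) and Ccnb2 (chr9:70421555-70421804, minus strand), the kinase and a cyclin of mitotic entry, are shown for their 3 CCAAT boxes each, in capitals and written ATTGG where the box is on the other strand.
Mcm5: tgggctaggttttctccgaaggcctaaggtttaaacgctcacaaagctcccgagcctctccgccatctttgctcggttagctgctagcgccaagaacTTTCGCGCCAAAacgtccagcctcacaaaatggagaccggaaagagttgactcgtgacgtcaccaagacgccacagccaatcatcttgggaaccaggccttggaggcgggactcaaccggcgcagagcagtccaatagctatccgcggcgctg
Mcm6: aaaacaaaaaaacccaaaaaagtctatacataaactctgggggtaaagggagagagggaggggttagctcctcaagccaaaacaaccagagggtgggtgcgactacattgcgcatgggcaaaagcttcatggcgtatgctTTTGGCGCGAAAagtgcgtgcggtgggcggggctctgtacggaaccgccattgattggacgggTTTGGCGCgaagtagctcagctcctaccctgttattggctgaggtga
Cdk1: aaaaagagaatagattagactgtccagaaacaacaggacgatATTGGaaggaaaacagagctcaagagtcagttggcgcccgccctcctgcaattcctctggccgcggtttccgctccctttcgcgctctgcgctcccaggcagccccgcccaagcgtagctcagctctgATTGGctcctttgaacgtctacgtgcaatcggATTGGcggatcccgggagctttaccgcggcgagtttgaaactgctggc
Ccnb2: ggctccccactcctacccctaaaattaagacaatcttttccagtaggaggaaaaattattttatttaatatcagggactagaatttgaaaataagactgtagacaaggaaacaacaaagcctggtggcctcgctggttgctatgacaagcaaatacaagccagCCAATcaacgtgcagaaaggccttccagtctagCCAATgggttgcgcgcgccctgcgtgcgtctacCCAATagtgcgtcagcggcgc
Mcm5 and Mcm6 rose by 1.71 and 1.55 log2 in liver, and Cdk1 and Ccnb2 by 1.75 and 1.50 log2. A motif match is a description of these letters, and binding was not measured.

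The diet effect was called for most members at some time of day. At least 1 time was called for 28 of 36 members, against 35.3% of all genes. All calls were of higher levels on MCD. At CT00 there were 7 members called higher (6.57% of all genes), at CT04 17 (9.46%) and at CT08 0 (0.548%). CT12 gave 18 members (8.08% of all genes), CT16 gave 8 (6.52%) and CT20 gave 7 (5.7%). At CT12 the calls included 9 of 10 S phase members, and at CT04 8 of 13 mitotic members. The mean over the 3 MCD libraries was above that of the 3 controls at all 6 times for 18 members, which 16.7% of all genes shared. When the control library CT08 a was left out, 10 members were called higher at CT08 itself (2.72% of all genes in that fit). The other times then gave 12 members at CT00 (7.25% of all genes), 19 at CT04 (10.8%), 21 at CT12 (9.73%), 13 at CT16 (7.44%) and 12 at CT20 (6.64%).

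Daily rhythms were called for G1 and S phase members, Wee1 and Gadd45a. A 24 h rhythm was called on control for 10 members (17.8% of all genes) and on MCD for 16 (28.2%), and none of the 13 G2 and mitosis members was among them on either diet. On control these were Wee1, Rrm2, Ccne1, Ccnd1, Cdk6, Ccne2, Gadd45a, Cdk2, Mcm3 and Mcm6. The mitotic members are scarce and their fits had wide errors, so a missing call does not show a missing rhythm. On MCD the fitted range from trough to peak was 2.04 ± 0.77 log2 (SE, n = 18) for Cdc20, 1.58 ± 0.62 for Ccnb2 and 0.13 ± 0.63 for Mki67. With the control library CT08 a left out, 9 members were called on control (17% of all genes) and 19 on MCD (30.2%). Cdkn1a (adjusted p = 5.71e-05 on control and 0.0142 on MCD) and Mcm7 (0.0335 and 0.0384) then joined on both diets and Mcm2 (0.00491) on MCD, and Cdk2 (0.063), Mcm3 (0.16) and Mcm6 (0.552) lost their control calls. The weakest calls moved with single libraries: Mcm6 lost its call in 23 of 36 fits that left out 1 library (adjusted p up to 0.552), and Mcm3 in 11. Without control CT04 replicate 1 the control count was 6. Rrm2 peaked early in the subjective night on both diets, at CT13.9 ± 0.6 h (SE, n = 18) on control and CT13.6 ± 0.6 h on MCD. Cdk6 peaked at CT7.3 ± 1.1 h and CT6.9 ± 0.3 h, with a fitted range from trough to peak of 0.50 log2 on control and 1.08 log2 on MCD. Ccne1 peaked at CT10.1 ± 0.9 h and CT9.2 ± 0.6 h, and Ccne2 at CT12.3 ± 0.8 h and CT13.2 ± 0.8 h. Ccnd1 peaked at CT8.4 ± 1.0 h and CT5.9 ± 0.7 h, and its call on MCD (adjusted p = 0.0474) was lost in 22 of 36 fits without 1 library. On MCD alone calls were made for Ccnd3, Cdk4, E2f1, Mcm4, Mcm5 and Pcna, but of these the difference between diets was called only for Ccnd3.

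The rhythm differed between diets for 3 of 36 members (4.87% of all genes): Wee1, Gadd45a and Ccnd3. None of them was called within either mt-Nd6 kind of library, in fits that hold fewer libraries. Wee1 had the strongest rhythm of all members on both diets (adjusted p = 1.19e-11 and 1.02e-09). On control its 3 libraries a time rose from 2.61 to 2.94 CPM at CT00 to 23.2 to 26.5 CPM at CT12. On MCD Wee1 was already at 9.47 to 9.73 CPM at CT04, where controls had 2.29 to 4.34 CPM, and reached 24.8 to 34.4 CPM at CT12. All MCD libraries were above the controls at CT00, CT04 and CT08, and the groups overlapped at the other 3 times. The share of all genes separated so was not counted. The fitted peak moved from CT12.3 ± 0.3 h on control to CT10.7 ± 0.2 h on MCD and the range from 3.56 to 2.75 log2 (test of the difference, adjusted p = 0.00282). Averaged over times Wee1 rose by 0.54 log2 (adjusted p = 1.93e-05). The rhythm difference was called for 4 of 18 clock genes (Nfil3, Tef, Arntl and Ciart), against 4.87% of all genes. Ciart peaked at CT11.5 ± 0.3 h on control and CT9.8 ± 0.3 h on MCD (difference, adjusted p = 0.0278), Tef at CT11.5 ± 0.4 h and CT10.2 ± 0.4 h (adjusted p = 0.0205), and Per1 at CT13.3 ± 0.7 h and CT10.7 ± 0.5 h (adjusted p = 0.0540).

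Gadd45a followed another daily course on MCD. On control its mean was 3.27 CPM at CT00, 10.9 ± 8.22 CPM (SD, n = 3) at CT08, 9.26 ± 3.92 CPM at CT12 and 10.8 ± 5.08 CPM at CT16, and on MCD it was 17.5 ± 8.52 CPM at CT00 and 24.7 ± 11.8 CPM at CT16 with a low of 4.93 CPM at CT12. The spread between libraries was wide, and at CT08 the female control held 20.4 CPM while the males held 5.25 and 7.22 CPM. The fitted peak was CT11.1 ± 1.0 h on control and CT20.2 ± 1.0 h on MCD (adjusted p = 0.0121). Ccnd3, a cyclin D not called for diet on average, was highest on MCD at CT08 (32.2 to 36.5 CPM against 26.3 to 26.7 CPM on control), and its fitted peak was CT8.9 ± 0.7 h on MCD (difference, adjusted p = 0.0144). Without the library labelled control CT08 a 11 members were called for a rhythm difference (6.01% of all genes in that fit), the 3 above together with Cdk6, Cdkn1a, E2f1, Mcm2, Mcm3, Mcm4, Mcm5 and Mcm7.

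**Figure D4:**
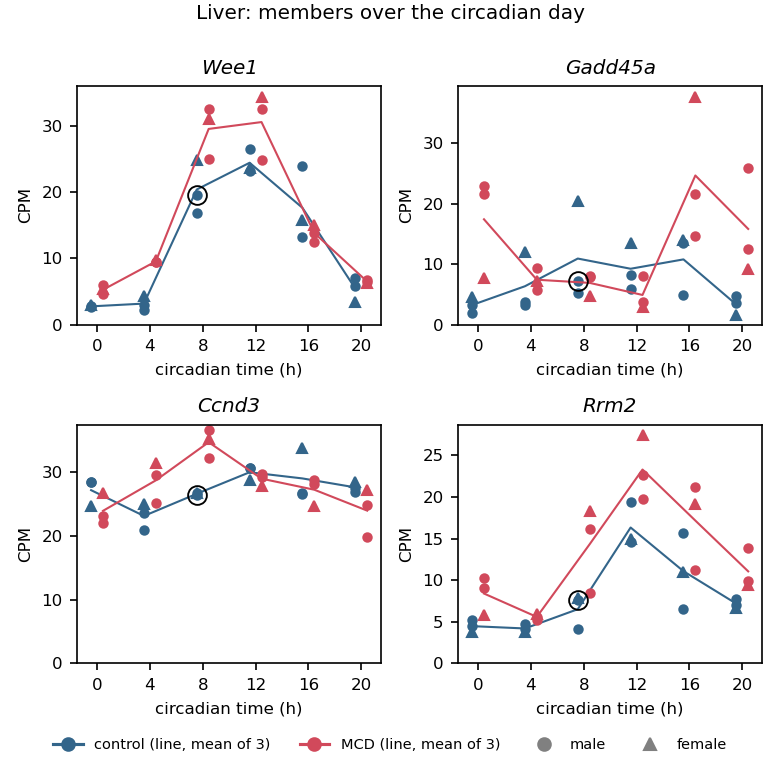
Scaled CPM of Wee1, Gadd45a, Ccnd3 and Rrm2 in 36 liver libraries by circadian time (circles male, triangles female, lines the mean of 3), with the library labelled control CT08 a ringed. Wee1 on MCD is at 9.47 to 9.73 CPM at CT04 against 2.29 to 4.34 CPM on control, Gadd45a on MCD is highest at CT16, and Rrm2 follows the same course on both diets at a higher level on MCD.

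Females had more cyclin D1 than males in liver. Ccnd1 lay between 28 and 419 CPM in the 12 female libraries (median 170) and between 12.8 and 316 CPM in the 24 male ones (median 77.4), and the difference was 1.24 ± 0.24 log2 (adjusted p = 0.00128). On control the means were 88.1 ± 50.1 CPM (SD, n = 6) in females and 38.9 ± 57.8 CPM (n = 12) in males. Leaving out control CT08 a, a male at 218 CPM, gave 22.7 ± 13.7 CPM (n = 11) in control males and a sex difference of 1.39 log2 (adjusted p = 4.3e-05). Cdkn2c was also higher in females (0.41 log2, adjusted p = 0.00793). These 2 of 36 members compare with 5.17% of all genes higher in females. The diet effect was not called as different between the sexes for any member (0 of 36, 1.77% of all genes), and leaving out control CT20 replicate 3 or MCD CT16 replicate 3, both female, made this 1 (Gadd45a).

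In the SCN the diet effect was not called for any of the 26 members, where 0.0635% of all genes were called by edgeR. None reached an unadjusted p below 0.05, and limma-voom and DESeq2 called none either. Changes ran from -0.71 to 0.43 log2 with a median of 0.02. For the 14 members with a control mean of at least 5 CPM, the interval of 2 SE around the change stayed between -0.34 and 0.45 log2. Cdkn1a lay between 2.90 and 18.3 CPM on control (median 8.68) and between 5.37 and 16.1 CPM on MCD (median 9.99), a change of 0.21 ± 0.12 log2, and Wee1 changed by -0.03 ± 0.06 log2. Ccnd1 was at 11.7 to 25.4 CPM on control and 9.97 to 21.4 CPM on MCD. Nor was any gene called among 15 further mitotic genes, 34 of origins and forks, 7 of nucleotide supply, 16 of the retinoblastoma and E2F list, 21 other regulators and 25 of p53 signalling. The single times gave no member either (0 of 26, 0.0571% of all genes at 1 or more times).

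A few SCN libraries stood apart in some members, among them Plk1 and Top2a, 2 of the 4 mitotic members in the SCN table. Plk1 had a median of 0.646 CPM on control and 0.496 CPM on MCD, but 6.17 CPM in control CT20 replicate 1 and 13.6 CPM in MCD CT20 replicate 1, and Top2a, a topoisomerase of dividing cells, had 9.51 and 21.7 CPM there against medians of 1.44 and 1.70 CPM. The other 2 members, Ccna2 and Bub1b, did not stand apart in the same CT20 libraries, with 0 and 1.37 CPM in the control and 1.72 and 1.62 CPM in the MCD library. Among members of other roles, MCD CT20 replicate 1 also held the highest SCN values of Cdk2 (10.3 CPM, MCD median 1.62), Cdkn2c (7.09 CPM, MCD median 0.975) and Mcm4 (26.4 CPM, MCD median 15). Control CT20 replicate 1 held 4.07 CPM of Cdk2 and 2.29 CPM of Cdkn2c, the latter the highest control. Control CT00 replicate 2 held 4.91 CPM of Plk1, 2.56 CPM of Top2a and 4.32 CPM of Cdk2. Sums of 6 markers of oligodendrocyte precursors were 215 and 186 CPM in the CT20 libraries, within the 164 to 254 CPM of all SCN libraries. For 6 brain endothelium markers they were 192 and 150 CPM (medians 162 CPM on control and 166 CPM on MCD). For 8 stellate cell markers they were 127 and 89.4 CPM (medians 79.3 and 77.1 CPM). Totals were 36.6 M counts in control CT20 replicate 1 and 28.7 M in MCD CT20 replicate 1. Control CT00 replicate 2 had 27.5 M, and the SCN median was 57 M. The shallowest SCN library, control CT20 replicate 3 at 23.3 M, held 1.52 CPM of Plk1 and 2.67 CPM of Top2a. The part of depth, or of anything else the libraries that stood apart may share, was not tested.

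**Figure D5:**
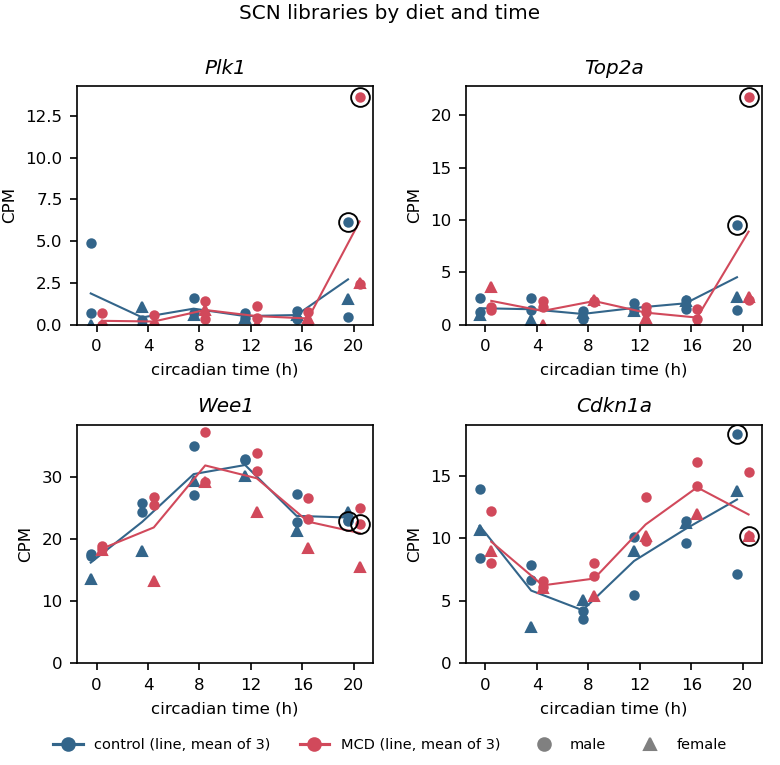
Scaled CPM of Plk1, Top2a, Wee1 and Cdkn1a in 36 SCN libraries by circadian time (circles male, triangles female, lines the mean of 3), with control CT20 replicate 1 and MCD CT20 replicate 1 ringed. The 2 ringed libraries hold the highest Plk1 and Top2a values, while Wee1 and Cdkn1a follow a daily course on both diets, and no single time was called for either gene.

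Rhythms in the SCN were called for 4 of 26 members on each diet (15.1% of all genes on control and 16.1% on MCD), the same 4 genes: Ccne2, Cdkn1a, Wee1 and Gadd45a. Wee1 went from 13.7 to 17.7 CPM at CT00 to 30.3 to 32.9 CPM at CT12 on control, and from 18.3 to 18.9 CPM to 24.5 to 34.0 CPM on MCD. It peaked at CT11.2 ± 0.6 h on control and CT10.5 ± 0.7 h on MCD, with ranges of 0.82 and 0.75 log2. Gadd45a peaked at CT16.8 ± 0.7 h and CT16.5 ± 0.5 h, and Cdkn1a at CT19.2 ± 0.8 h and CT17.2 ± 0.5 h. Ccne2 on control lost its call in 5 of 36 fits without 1 library. The test of the rhythm difference called none of the 26 (0.0127% of all genes). Sex was called for 2 members (9.89% of all genes): Ccnd3 was higher in females (median 35.8 against 29.6 CPM, 0.22 log2, adjusted p = 0.00637) and Wee1 was lower (median 20 against 25.7 CPM, -0.31 log2, adjusted p = 0.00659). With a single library left out, that of MCD CT00 replicate 2, MCD CT16 replicate 2 or MCD CT16 replicate 3, 4 members were called. No member had a diet effect that differed between the sexes (0% of all genes).

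The diet effect itself differed between the tissues for 16 of the 26 members, in every case more positive in liver, by a test over all 72 libraries (34.7% of the 14491 genes in both tables, 18.9% more positive in liver). The largest differences were those of Plk1 (3.14 ± 0.79 log2), Ccnd1 (2.45 ± 0.25), Ccne1 (1.79 ± 0.48), Top2a (1.58 ± 0.46), Mcm6 (1.50 ± 0.23), Mcm2 (1.47 ± 0.24), Cdkn1a (1.45 ± 0.37) and Mcm5 (1.33 ± 0.45). The value of Plk1 rests on few reads in SCN, where 8 of 36 libraries had none and its change was -0.71 ± 0.66 log2 although its mean was 1.18 CPM on control and 1.4 CPM on MCD. Wee1 differed by 0.57 ± 0.11 log2 (adjusted p = 7.25e-05). On control, 22 of the 26 members differed between liver and SCN, as did 90.4% of all genes. Cdk6 (5.28 log2), Cdk2 (3.97), Rrm2 (3.59), Cdkn2c (3.15), Mcm3 (2.44) and Ccnd2 (1.96) were higher in liver, and Ccne2 (-2.20) and Gadd45a (-1.78) were higher in SCN. These rest on scaling between 2 unlike tissues: with library totals alone Cdk4, Mcm7 and Pcna, higher in liver here, were called higher in SCN, and the difference of Mcm2 turned to -0.29 log2 and did not pass the test (adjusted p = 0.181).

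Reads of a gene and of a neighbour on the opposite strand could be mixed where counting ignored strand, which is not given in the sources used here. Exons of 13 members overlap a gene on the other strand in GENCODE M21, by 23.4% of exon bases for Ccnd1 (with LTO1), 19.7% for Cdk4 (Tspan31), 19.1% for Gadd45a, 17.4% for Ccne2 (Ints8) and 12.5% for Ccna2 (Exosc9). Wee1, Mki67, Ccnb1 and Mcm2 have no such overlap.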

How the data were processed

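Whole-number gene counts of 36 liver and 36 SCN libraries were used as deposited by the authors. Per the labels' protocols, libraries were made with a stranded poly(A) kit, and per the submitters' processing notes Trimmomatic, HISAT2, StringTie and DESeq2 were used with build GRCm39 (versions not given in the sources used here). Samples were grouped by tissue, diet and time from the labels. Nothing in the labels pairs liver and SCN of 1 mouse, and p-values measure the spread between libraries. Here each tissue was fitted with edgeR 4.0.16 (TMM scaling, filterByExpr at 10 counts, quasi-likelihood test) with terms for the 12 groups of diet and time and for sex, with Benjamini-Hochberg adjustment over all genes and a threshold of 0.05. For rhythm, contrasts of the group means with a 24 h cosine and sine wave were tested jointly, and peak times came from a cosinor on log2 CPM (prior count 2). Alternatives were DESeq2 1.42.0, limma-voom 3.58.1, other scalings, no filter, the 2 kinds of liver library that differ in mt-Nd6, and each library left out. The scripts were tested on simulated data. The members, lists and markers were chosen with earlier results of these data known. Genes printed with values were, per test, up to 8 called members with the largest change (for rhythm, the lowest adjusted p) at a mean of at least 0.5 CPM, with Mki67, Wee1 and Cdkn1a always, and up to 3 genes a direction of each wider list; members named beyond that were chosen after their values were seen. The exon-bin count files were not used.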

Additional observations from a re-analysis of the deposited data

Results flagged for a closer look

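The daily rhythm in liver differed between diets by a test of the difference itself for Wee1 (edgeR adjusted p = 0.00282), Gadd45a (adjusted p = 0.0121) and Ccnd3 (adjusted p = 0.0144).

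The diet effect differed between tissues by the test over all 72 libraries for 16 members, each more positive in liver. The difference (liver minus SCN, log2) was 3.14 for Plk1, 2.45 for Ccnd1, 1.79 for Ccne1, 1.58 for Top2a, 1.50 for Mcm6, 1.47 for Mcm2, 1.45 for Cdkn1a and 1.33 for Mcm5. It was 1.09 for Bub1b, 0.89 for Cdc25a, 0.87 for Mcm3, 0.77 for Gadd45a, 0.75 for Mcm4, 0.57 for Wee1, 0.57 for Mcm7 and 0.25 for Pcna.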

How the results depend on the processing

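The number of members called for diet in liver was within 1.5 times the main count under every other scaling, filter and tool tried. It was 16 within the low mt-Nd6 kind of library, which holds control CT08 a. The control rhythm count of 10 was 6 with limma-voom, 6 with the replicate block, 4 within the low kind and 3 within the high kind. The MCD rhythm count was 0 within the high kind. The rhythm difference count of 3 was 6 with DESeq2, 6 with the replicate block, 11 without the library labelled control CT08 a and 0 within each kind. Within-kind fits hold fewer libraries. The SCN sex count was 5 with library totals alone. With library totals alone the liver diet change turned to 0.26 for Ccnd2 and 0.20 for Cdkn1b, neither called in the main analysis, and the tissue difference to -0.53 for Cdk4, -0.29 for Mcm2, -0.39 for Mcm7 and -0.26 for Pcna. The cause was not tested.

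With each library left out in turn, the liver counts ran from 30 to 32 for diet, 6 to 13 for the control rhythm, 13 to 19 for the MCD rhythm, 3 to 11 for the rhythm difference, 2 to 3 for sex, 0 to 1 for sex by diet and 25 to 29 for single times. In SCN they ran from 0 to 0 for diet, 3 to 5 for the control rhythm, 4 to 5 for the MCD rhythm and 2 to 4 for sex.

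Whether replicate numbers pair the samples was not settled. Deviations of same-numbered libraries correlated above 0.1 in 5 of 16 liver pairs (-0.21 to 0.29) and 3 of 16 SCN pairs (-0.17 to 0.25). Values for differently numbered libraries are not given beside them, so these correlations neither show nor exclude pairing. With the replicate block, which leaves out both unnumbered CT08 controls, liver diet had 30 members called and single times 28. Low counts limit Bub1, Ccnb1, Cdc20 and Plk1 on control in liver and Plk1 in SCN.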
